A study of Mus musculus with 8 samples.

Results

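Core histone and histone variant genes were followed in mouse spermatogenic cells with and without a conditional knockout of Brg1. A gene belonged to the set when its symbol began with Hist1h to Hist4h followed by 2a, 2b, 3 or 4, or with H2af or H3f3. H2afx was left out. The table held 28460 genes, and 77 of them carried such a symbol: 62 in the histone clusters and 15 among the replacement variants. A gene was kept when it had an estimated count of at least 10 in at least 4 libraries, which left 30 genes, 22 cluster genes and 8 replacement variants. All 30 passed the expression filter of the test. The kept cluster genes were 8 for H2A, 6 for H2B, 4 for H3 and 4 for H4. Of the other 47 symbols, 5 had no count in any library. Just inside the minimum, with 4 libraries at a count of 10, stood Hist1h2bq, Hist3h2ba and Hist1h3a. Hist1h2ba, Hist1h4a and Hist1h4d stood just outside it, with 3 libraries.

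Messenger RNA was sequenced from testis cells of mice aged 12 days after birth, when the most advanced germ cells are in meiotic prophase. There were 4 libraries of Brg1 cKO and 4 of Brg1 WT, both on a mixed strain background, and the design text calls them biological replicates. Brg1, encoded by Smarca4, is an ATPase that moves and evicts nucleosomes as part of the SWI/SNF complex. The labels state no Cre driver, deleted exons or pooling of animals. The cells came from an enzymatic digest passed through a sieve, and the labels name no sort by a marker.

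Core histones H2A, H2B, H3 and H4 form the protein spool of the nucleosome. Most are made during DNA replication from many near-identical genes in clusters, and these messages end in a conserved stem-loop in place of a poly(A) tail. Replacement variants such as H3.3, H2A.Z and macroH2A come from genes outside these arrays, with ordinary polyadenylated messages and are put into chromatin at any time of the cell cycle. In male germ cells testis variants join them before protamines replace most histones in spermatids. The libraries were made with an mRNA kit, which captures polyadenylated transcripts, so the values describe the polyadenylated share of cluster gene messages and not their total.

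Library totals ran from 20456743 to 27872409 estimated counts in Brg1 cKO and from 25213109 to 32596038 in Brg1 WT. Smarca4 was lower in every Brg1 cKO library, at 121 ± 7.55 CPM in Brg1 cKO and 347 ± 7.67 CPM in Brg1 WT (SD, n = 4 each), CPM being the count scaled to a common library total. The log2 fold change was -1.52 with an SE of 0.061 (adjusted p = 6.8e-06 by edgeR's quasi-likelihood test). None of 15 pan-germ cell markers was at 0 in either genotype, and their summed level was 1721 to 2271 CPM in Brg1 cKO and 2193 to 2795 CPM in Brg1 WT. The 19 Sertoli cell markers, from the somatic nurse cells of the tubule, were also all measured, summing to 8557 to 11310 CPM in Brg1 cKO and 6638 to 8466 CPM in Brg1 WT. Of those 19, 10 were called higher and none lower (52.6% called). Of the 15 pan-germ cell markers 2 were called lower and none higher (13.3% called). Among all tested genes 8.79% were called higher and 11.8% lower. In such mixed samples fewer cells of a type and less RNA per cell cannot be told apart, and the part of cell composition in the histone values below was not tested.

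Few histone genes passed the test. With the threshold set at an adjusted p of 0.05, edgeR's quasi-likelihood test called none of the 30 genes higher and 1, Hist1h3a, lower. That is 3.33% of the set, beside 20.6% of the 16059 genes tested. By direction, 8.79% of all tested genes were called higher and 11.8% lower. Positive and negative log2 fold changes were 15 each. The median was 0.044 for the set and 0.013 for all tested genes, and the median size without sign was 0.29 and 0.23. The libraries of the genotypes did not overlap for 5 genes (16.7%, beside 26.1% of all tested genes): H3f3a, H2afy and Hist2h3c1 were higher in every Brg1 cKO library, and Hist1h3a and Hist2h2ac were lower. At an unadjusted p under 0.05, 3 genes were higher and 4 lower, where all tested genes gave 17.7% and 19%. The 95% interval of the fold change lay within 1.5-fold in either direction for 9 genes and within 2-fold for 17, and was wider for the other 13.

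**Figure D1:**
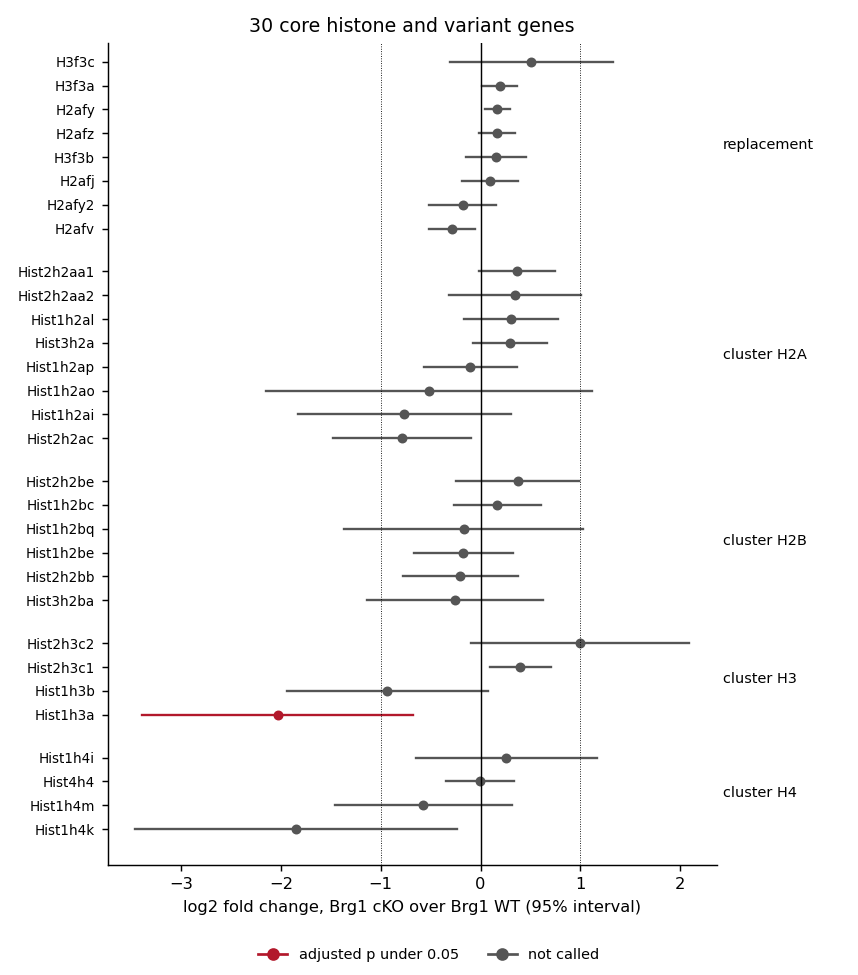
Log2 fold change of each of the 30 histone genes, Brg1 cKO over Brg1 WT, with its 95% interval from the edgeR quasi-likelihood fit; red marks an adjusted p under 0.05 and grey a gene not called. Hist1h3a is the called gene, at -2.03.

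Among the kept genes direction went with abundance. Of the 17 genes with a mean count of at least 100, 12 had a positive log2 fold change and 5 a negative one, with a median of 0.17. Of the 13 with a lower mean count, 3 were positive and 10 negative, with a median of -0.26. The count minimum bears on these 13. Hist1h3a, Hist1h3b, Hist1h4k and Hist2h2ac, all negative, met it in 4 Brg1 WT but in 0, 1, 1 and 2 Brg1 cKO libraries. Hist2h3c2, positive, met it in 4 Brg1 cKO and 3 Brg1 WT libraries. Other genes of like count were not compared, so nothing particular to histones is read from the pattern. None of the 17 genes with the higher mean count was called. Other tools and filters called up to 2 genes higher: DESeq2 called 2 (13.9% of all its genes), RLE size factors 1 (9.66%) and a filter of 1 CPM in 4 libraries 1 (10.6%). The directions depend on which level is taken as no change. With the pan-germ cell median so taken, the median of all genes moved to 0.35, 10 histone genes were called higher and 1 lower, beside 50.9% and 3.71% of all tested genes, and 93.2% of all calls were higher. With the Sertoli cell median so taken it moved to -0.41, none was called higher and 11 lower, beside 0.342% and 57% of all tested genes, and 0.597% of all calls were higher, against 42.6% of calls with the usual scaling.

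Replacement variants dominated the histone reads. They held 91.4% to 93.4% of the counts of the 77 symbols in Brg1 cKO and 90.9% to 92.5% in Brg1 WT. H3f3a and H3f3b, which encode the same H3.3 protein, together held 69.6% to 75.9% and 68.4% to 72.6% of them in Brg1 cKO and Brg1 WT. Per kilobase of transcript, taking the median annotated length, H3f3a stood at 708 CPM in Brg1 cKO and 620 CPM in Brg1 WT, and H3f3b at 469 and 421 CPM. The order of these neighbours turns on the transcript taken, because the annotated transcripts of H3f3a reach 2841 bases against a median of 602. Next came H2afz, with 217 and 194 CPM per kilobase in Brg1 cKO and Brg1 WT, and the cluster gene Hist1h2ap, with 139 and 150. H2afy followed with 66.2 and 58.9, then H2afv with 43.7 and 53.4. Most other cluster genes lay lower. Among the kept genes the lowest values were 0.330 CPM per kilobase for Hist1h3a in Brg1 cKO and 0.473 for Hist1h2be in Brg1 WT.

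H3f3a had 409.2, 439.7, 407.9 and 448.2 CPM in Brg1 cKO replicates 1 to 4, against 350.3, 334.6, 403.8 and 404.8 CPM in Brg1 WT replicates 1 to 4. Every Brg1 cKO library was above every Brg1 WT library, though Brg1 cKO replicate 3 and Brg1 WT replicate 4 were close. The log2 fold change was 0.19 ± 0.079 (SE, 95% interval 0.014 to 0.37) and did not pass the test (adjusted p = 0.112, edgeR quasi-likelihood test). H3f3b had 1015, 947.4, 990.8 and 1272 CPM in Brg1 cKO, against 853.3, 782.4, 1029 and 1133 CPM in Brg1 WT. Its libraries overlapped, with replicate 4 highest in each genotype, and the log2 fold change was 0.15 ± 0.14 (adjusted p = 0.437, edgeR). H3f3c, annotated as a processed pseudogene, had 16.6, 15.9, 11.0 and 6.12 CPM in Brg1 cKO and 4.84, 10.9, 7.46 and 11.8 CPM in Brg1 WT. Its groups overlapped, and the log2 fold change was 0.51 ± 0.36 (adjusted p = 0.337, edgeR). Of its 31-base words 8.66% occurred in no other annotated gene and 79.3% were shared with H3f3a, so its reads may be split with that gene.

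H2afz and H2afv encode the pair of H2A.Z proteins, variants found around transcription start sites. H2afz had 167.9, 192.4, 166.1 and 177.1 CPM in Brg1 cKO, against 175.8, 149.2, 142.0 and 161.0 CPM in Brg1 WT. The groups overlapped through Brg1 WT replicate 1, and the log2 fold change was 0.16 ± 0.079 (adjusted p = 0.165, edgeR). H2afv pointed the other way, with 41.9, 57.0, 41.3 and 48.2 CPM in Brg1 cKO and 61.2, 57.2, 56.3 and 55.1 CPM in Brg1 WT. Brg1 cKO replicate 2 reached the Brg1 WT range while the other 3 lay below it. The log2 fold change was -0.29 ± 0.10 (95% interval -0.52 to -0.057, adjusted p = 0.074, edgeR), and without Brg1 cKO replicate 2 H2afv was called lower. Whether the H2afz and H2afv differences differ from each other was not tested.

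H2afy and H2afy2 encode macroH2A proteins, which carry a large extra domain and are enriched in silent chromatin. H2afy had 130.8, 135.4, 134.9 and 125.5 CPM in Brg1 cKO, against 114.1, 113.8, 115.6 and 125.3 CPM in Brg1 WT. The groups did not overlap, by a narrow margin at replicate 4 of each. The log2 fold change was 0.17 ± 0.055 (95% interval 0.045 to 0.29, adjusted p = 0.057, edgeR), and H2afy was called higher by DESeq2, with RLE size factors, with a 1 CPM filter, without Brg1 WT replicate 4 and with the pan-germ cell median taken as no change, while it was called lower with the Sertoli cell median so taken. H2afy2 had 22.1, 18.8, 18.2 and 23.5 CPM in Brg1 cKO, against 17.2, 24.0, 28.1 and 24.1 CPM in Brg1 WT. Its groups overlapped (log2 fold change -0.18 ± 0.15, adjusted p = 0.418, edgeR). H2afj, an H2A variant gene outside the large clusters, had 15.1, 16.9, 13.9 and 15.9 CPM in Brg1 cKO and 14.6, 11.5, 15.2 and 16.7 CPM in Brg1 WT, also overlapping (0.095 ± 0.13, adjusted p = 0.616, edgeR).

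**Figure D2:**
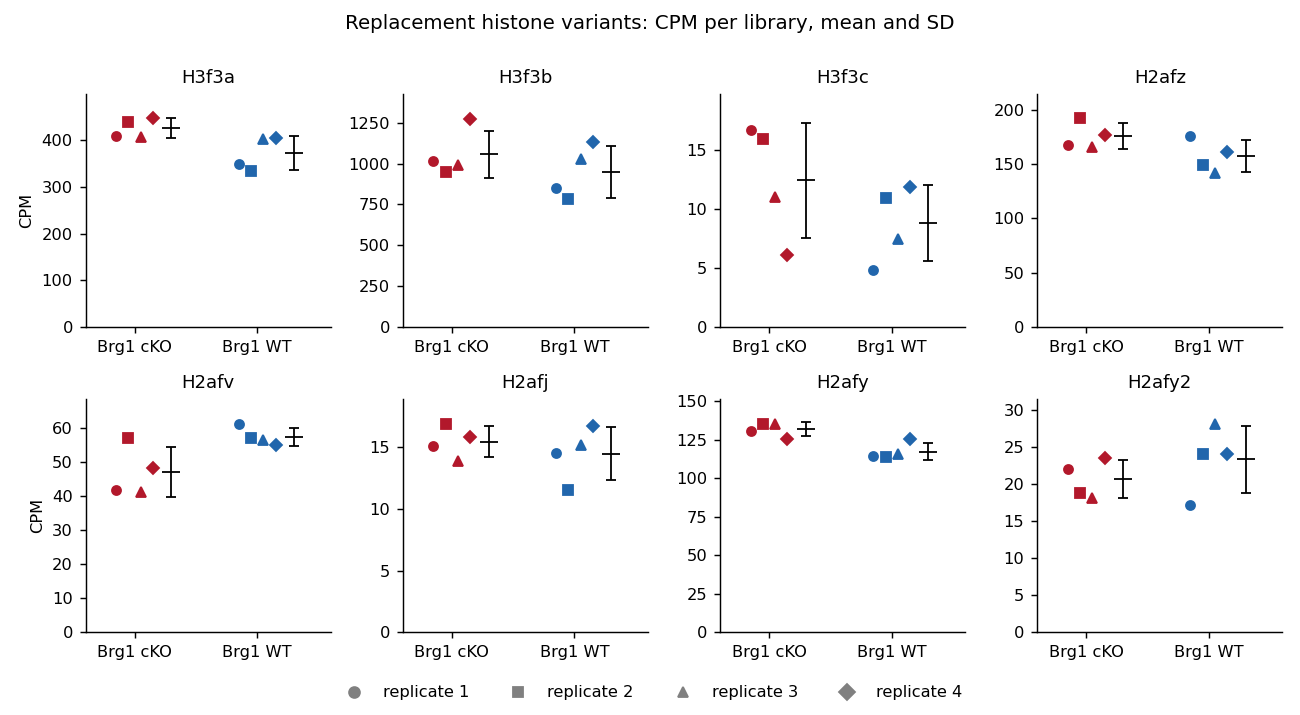
CPM of the 8 replacement variant genes in each library, Brg1 cKO on the left and Brg1 WT on the right of each panel, with the mean and SD beside the points. H3f3a and H2afy are the panels in which the libraries of the genotypes do not overlap.

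Taken over all 15 replacement symbols, the summed level was 1886 ± 155 CPM in Brg1 cKO and 1701 ± 202 CPM in Brg1 WT (SD, n = 4 each), with overlap between the groups. The H2A.B genes H2afb1 and H2afb2, known from late spermatogenic cells, had no count in any library, and H2afb3 had 1 count in Brg1 WT replicate 1.

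The message ends of the cluster genes were read from the annotated transcripts (GENCODE M21, GRCm38) to show which carry the stem-loop that marks histone messages without a poly(A) tail. The letters searched, on the transcript strand, were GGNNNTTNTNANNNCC, with the 3 free bases (N) of each arm complementary. They were found in 42 of the 62 cluster symbols and in 0 of the 15 replacement symbols, beside 0.0755% of all 141767 annotated transcripts. Where they were not found, a loop is not shown to be absent, because an annotated transcript may stop short of the message end. Among such symbols Hist1h4k had 312 annotated bases, Hist2h2bb 381 and Hist1h2ai 393. The following examples show the called gene Hist1h3a, the most abundant cluster gene Hist1h2ap, the most abundant H3 gene and H4 genes, with the stem arms in capitals.
Hist1h3a: ccaaaGGCTCTtttcAGAGCCacaca
Hist1h2ap: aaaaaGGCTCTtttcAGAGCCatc
Hist2h3c1: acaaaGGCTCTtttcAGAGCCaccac
Hist4h4: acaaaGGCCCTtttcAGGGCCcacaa
Hist1h4b: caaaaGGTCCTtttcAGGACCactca
The arm separated the classes. All 12 H4 loops had the arm GGCCCT (10) or GGTCCT (2), and all 30 loops of the other classes had GGCTCT.

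Some annotated transcripts run on past the loop. At least 200 bases followed it in 15 symbols, 6 of them kept, with 1167 bases in Hist2h3c1, 1643 in Hist3h2a and 2445 in Hist4h4. In Hist1h3a 37 bases followed and in Hist1h2ap 3. The poly(A) signal letters AATAAA, on the transcript strand, stood within the last 40 bases in 12 of the 62 cluster symbols, 6 of them kept. Over the annotation 25.8% of transcripts had them, a share of transcripts and not of symbols. Not all replacement variants showed them: among the kept ones H3f3b, H2afy and H3f3c did not. Nor did any replacement symbol below the count minimum. Here too an annotated transcript may stop short of the message end. The letters are in capitals in these ends, of cluster genes and then of 2 replacement variants that had them.
Hist2h3c1: atcccAATAAAaatttaacacactgcta
Hist4h4: aagatgctagaggagatgaAATAAAtac
Hist2h2be: attattAATAAAgttaccgattagtttc
H3f3a: aaaaatAATAAAagtaccaatagaagaa
H2afz: tggataagctcAATAAAggtcatatccc
Levels are given per length, and the length includes the run itself, so no order is read from them. The median over symbols with at least 200 further bases was 0.181 CPM per kilobase in Brg1 cKO and 0.473 in Brg1 WT. With fewer bases it was 0.320 and 0.537, and where the letters were not found 0.239 and 0.421. The replacement symbols had medians of 9.496 and 10.7 CPM per kilobase in Brg1 cKO and Brg1 WT.

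Among cluster genes the H2A class was the most abundant, and its sum overlapped between the genotypes, at 117 ± 8.95 CPM in Brg1 cKO and 117 ± 27.97 CPM in Brg1 WT (SD, n = 4 each, 20 symbols). Hist1h2ap had 62.9, 75.0, 71.8 and 59.1 CPM in Brg1 cKO, against 47.5, 61.0, 84.6 and 95.6 CPM in Brg1 WT. The Brg1 WT libraries spread on both sides of the Brg1 cKO libraries, and the log2 fold change was -0.10 ± 0.20 (adjusted p = 0.747, edgeR). Hist1h2ap shares 93.4% of its 31-base words with Hist1h2ao. Summed with Hist1h2ao it had 70.8, 87.0, 76.4 and 62.4 CPM in Brg1 cKO and 48.8, 74.2, 101.8 and 103.7 CPM in Brg1 WT, still overlapping.

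Hist2h2aa1 had 16.9, 13.0, 14.6 and 12.8 CPM in Brg1 cKO, against 8.16, 11.2, 10.8 and 14.4 CPM in Brg1 WT. Brg1 WT replicate 4 lay inside the Brg1 cKO range, and the log2 fold change of 0.36 ± 0.17 did not pass the test (adjusted p = 0.154, edgeR). None of its 31-base words was its own, and Gm20633 shared 100% of them. Summed with its copy Hist2h2aa2 the log2 fold change was again 0.36 ± 0.17 (adjusted p = 0.160, edgeR). That sum left Gm20633 out, so it cannot show whether reads were split with it. Hist1h2al, annotated as a processed pseudogene, had 9.60, 13.1, 11.98 and 15.1 CPM in Brg1 cKO, against 12.4, 7.03, 12.5 and 8.36 CPM in Brg1 WT (0.31 ± 0.21, adjusted p = 0.318, edgeR), with overlap. Of its 31-base words 18.1% were its own and 79.9% were shared with Gm20632, so its reads may be split with that gene. Hist2h2ac was lower in every Brg1 cKO library, at 0.373 ± 0.128 CPM in Brg1 cKO and 0.624 ± 0.057 CPM in Brg1 WT (SD, n = 4 each; -0.78 ± 0.31, adjusted p = 0.098, edgeR). It met the count minimum in all 4 Brg1 WT libraries and in 2 Brg1 cKO libraries, so the minimum favoured this direction. The remaining H2A genes Hist3h2a, Hist2h2aa2, Hist1h2ao and Hist1h2ai overlapped between the genotypes.

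The H2B class summed to 18.6 ± 1.91 CPM in Brg1 cKO and 18.4 ± 1.00 CPM in Brg1 WT (SD, n = 4 each). Its most abundant gene, Hist1h2bc, had 7.30, 11.0, 11.9 and 6.67 CPM in Brg1 cKO, against 7.44, 8.997, 7.501 and 8.86 CPM in Brg1 WT. The Brg1 cKO libraries spread more widely than the Brg1 WT libraries and on both sides of them, and the log2 fold change was 0.17 ± 0.20 (adjusted p = 0.560, edgeR). None of the other 5 H2B genes was called, and their log2 fold changes ran from -0.26 for Hist3h2ba to 0.37 for Hist2h2be.

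The H3 class summed to 12.8 ± 2.25 CPM in Brg1 cKO and 10.9 ± 0.351 CPM in Brg1 WT (SD, n = 4 each), without overlap. The margin was narrow, with 11.48 CPM in Brg1 cKO replicate 4 and 11.24 CPM in Brg1 WT replicate 2. Brg1 cKO replicate 3 was highest, at 16.2 CPM. Most of the class sum was Hist2h3c1, with 10.6, 9.99, 13.9 and 9.30 CPM in Brg1 cKO, against 8.31, 8.27, 7.92 and 8.75 CPM in Brg1 WT. Each Brg1 cKO library was above each Brg1 WT library, and the log2 fold change was 0.40 ± 0.14 (95% interval 0.090 to 0.71, adjusted p = 0.066, edgeR). DESeq2 called Hist2h3c1 higher, as did edgeR without Brg1 cKO replicate 4. All of its 31-base words occur in other annotated genes, with 100% in Gm20634. Summed with its copies Hist2h3b and Hist2h3c2 it gave 0.42 ± 0.15 (adjusted p = 0.069, edgeR). That sum left Gm20634 out, so it cannot show whether reads were split with it.

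Hist1h3a, which encodes a replication-dependent H3 protein, was the called gene and one of the rarest. Its estimated counts were 0, 6.61, 2.12 and 7.67 in Brg1 cKO replicates 1 to 4, against 19.6, 23.9, 28.6 and 12.9 in Brg1 WT replicates 1 to 4. In CPM it had 0.176 ± 0.168 in Brg1 cKO and 0.744 ± 0.184 in Brg1 WT (SD, n = 4 each). It fell by 2.03 ± 0.61 on the log2 scale (SE, 95% interval -3.39 to -0.68, adjusted p = 0.042, edgeR quasi-likelihood test). It was the 1 kept gene with no Brg1 cKO library at the count minimum, which it met in all 4 Brg1 WT libraries. The minimum itself so required a difference, and the call is no independent support. Hist1h3b, Hist1h4k and Hist2h2ac also met it in all 4 Brg1 WT libraries, but in only 1, 1 and 2 Brg1 cKO libraries. Their direction is no independent support either. The adjusted p of Hist1h3a was 0.053 without an expression filter and 0.202 without Brg1 WT replicates 1 and 2, and over the alternatives that kept the gene it ran from 0.0061 to 0.202. With 1 library left out at a time, the call held without Brg1 cKO replicate 4 and was lost without each of the other 7.

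**Figure D3:**
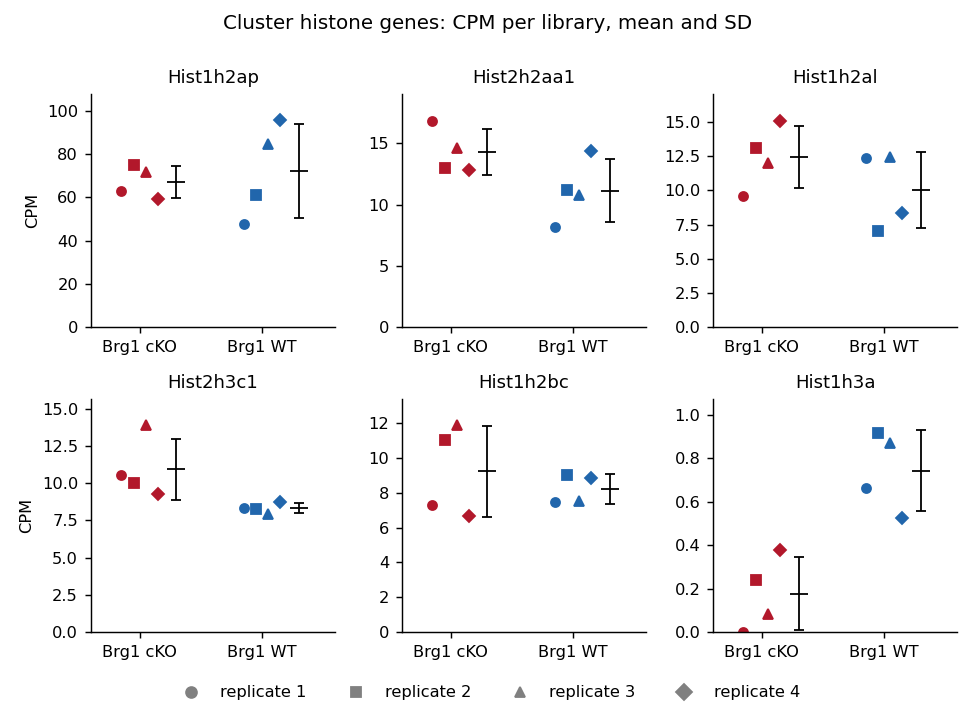
CPM of the 5 most abundant cluster histone genes and of Hist1h3a in each library, Brg1 cKO on the left and Brg1 WT on the right of each panel, with the mean and SD beside the points. The 4 Brg1 WT points of Hist1h2ap run from 47.5 to 95.6 CPM, while Hist1h3a stays under 1 CPM in all 8 libraries.

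The H4 class summed to 11.0 ± 0.842 CPM in Brg1 cKO and 13.8 ± 1.45 CPM in Brg1 WT (SD, n = 4 each), with overlap. Hist4h4, outside the large clusters, had 8.22 ± 1.07 CPM in Brg1 cKO and 8.24 ± 1.35 CPM in Brg1 WT, a log2 fold change of -0.007 ± 0.15 (95% interval -0.35 to 0.33, adjusted p = 0.979, edgeR). The other 12 H4 symbols together had 2.56, 3.71, 2.29 and 2.51 CPM in Brg1 cKO, against 8.29, 6.56, 3.18 and 4.30 CPM in Brg1 WT. Brg1 WT replicates 1 and 2 were highest, and Brg1 WT replicate 3 lay within the Brg1 cKO range. Among the tested H4 genes Hist1h4k had the widest difference, a log2 fold change of -1.85 ± 0.71 that did not pass the test (adjusted p = 0.095, edgeR), and was called lower without Brg1 cKO replicate 2. Hist1h4k met the count minimum in all 4 Brg1 WT libraries and in 1 Brg1 cKO library, so the minimum favoured this direction.

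The 40 cluster symbols below the minimum were lower on average in Brg1 cKO for 31, higher for 8 and equal for 1. Their sum was 5.10, 3.51, 2.69 and 2.84 CPM in Brg1 cKO replicates 1 to 4, against 9.94, 8.22, 4.87 and 5.51 CPM in Brg1 WT replicates 1 to 4. The groups overlapped, Brg1 cKO replicate 1 lying above Brg1 WT replicate 3, and the mean was 2.02-fold lower in Brg1 cKO, at 3.53 ± 1.103 CPM in Brg1 cKO and 7.13 ± 2.37 CPM in Brg1 WT (SD, n = 4 each). Among these sums by class, the 6 H3 symbols did not overlap, with 0.377 ± 0.090 CPM in Brg1 cKO and 0.737 ± 0.072 CPM in Brg1 WT. The 12 H2A symbols had 0.900 ± 0.532 CPM in Brg1 cKO and 1.33 ± 0.657 CPM in Brg1 WT, the 13 H2B symbols 1.09 ± 0.531 and 2.27 ± 0.885 CPM in Brg1 cKO and Brg1 WT, and the 9 H4 symbols 1.16 ± 0.406 and 2.80 ± 1.234 CPM, each with overlap. These symbols are too sparse for the test, apart from Hist1h4d (log2 fold change -1.31, adjusted p = 0.114, edgeR), and no p is given for their sum. Other genes of like count were not compared here either, so nothing particular to histones is read from these directions. Near-identical copies may share reads, so the symbols are not separate observations. Hist1h2af and Hist1h2ah, for example, had 5.69% and 7.47% of 31-base words of their own.

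The testis histone genes stood in this sparse group. Hist1h2ba, the testis H2B gene, had estimated counts of 4.71, 2.37, 6.20 and 0 in Brg1 cKO, against 18.6, 12.8, 8.76 and 15.8 in Brg1 WT. Hist1h2aa, the testis H2A gene, had 3.10, 0, 1.21 and 4.10 in Brg1 cKO, against 13.5, 8.42, 13.5 and 4.45 in Brg1 WT. Hist1h2ba did not overlap in CPM, and Hist1h2aa did. Markers of pachytene cells and spermatids were also lower on average in Brg1 cKO. Of the 14 listed 7 were tested, and the mean log2 CPM of those 7 was 2.05, 2.06, 2.02 and 1.91 in Brg1 cKO replicates 1 to 4, against 3.63, 3.31, 2.68 and 2.44 in Brg1 WT replicates 1 to 4. Among the 7, 5 were called lower and none higher. This was not particular to late stages, as 7 of 10 meiotic prophase markers were called lower and 0 higher. Of all tested genes 11.8% were called lower. The part of these markers' cells in the result was not tested.

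**Figure D4:**
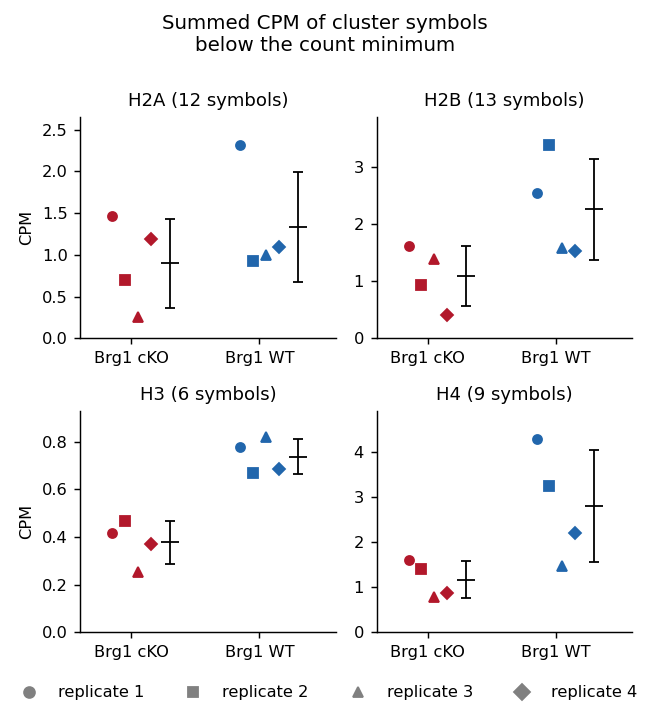
Summed CPM, in each library, of the cluster histone symbols below the count minimum, 1 panel each for H2A, H2B, H3 and H4, with Brg1 cKO on the left, Brg1 WT on the right and the mean and SD beside the points. The groups do not overlap for H3, and Brg1 WT replicate 1 or 2 is highest for H2A, H2B and H4.

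Histone supply was read from 53 genes that transcribe and process histone messages or carry histones to chromatin, 52 of them tested. In Brg1 cKO 15 were called lower and 3 higher, with 34 uncalled (34.6% called, beside 20.6% of all tested genes) and a median log2 fold change of -0.076. These counts became 1 lower and 27 higher with the pan-germ cell median taken as no change, and 46 lower and 0 higher with the Sertoli cell median so taken. Of all tested genes 3.71% were called lower and 50.9% higher with the pan-germ cell median, and 57% lower and 0.342% higher with the Sertoli cell median. Without Brg1 cKO replicate 1 or without Brg1 WT replicate 2, 8 supply genes were lower, and without Brg1 cKO replicate 3, 9 were. Lower calls over all tested genes also fell, from 11.8% to 6.45%, 6.99% and 7.3% in those fits, in that order. Among centromere genes Cenpa, the centromeric H3 variant, was lower, as were Mis18a and Oip5, whose products prepare centromeres for it. Its chaperone Hjurp was not called, with a log2 fold change of -0.096. Among 17 H3-H4 chaperone genes 5 were lower and 2 higher, among 15 for transcription and message processing 5 were lower and none higher, and among 15 H2A-H2B chaperone and exchange genes 1 was lower and 1 higher.

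Asf1b, an H3-H4 chaperone of dividing cells, had 29.1, 31.9, 31.6 and 38.2 CPM in Brg1 cKO, against 77.2, 64.2, 67.7 and 63.6 CPM in Brg1 WT. It fell by 1.06 ± 0.098 on the log2 scale (adjusted p = 6.9e-04, edgeR) and was called lower under all 18 alternatives. Its paralog Asf1a, 39.5 CPM in Brg1 cKO and 36.1 CPM in Brg1 WT on average, was not called (adjusted p = 0.191, edgeR). Tonsl, which binds new histones at replication forks, fell to 34.3 ± 4.20 CPM in Brg1 cKO, against 51.4 ± 3.58 CPM in Brg1 WT (SD, n = 4 each; -0.58 ± 0.095, adjusted p = 0.0053, edgeR). E2f1, an activator of S-phase genes, fell to 25.9 ± 3.31 CPM in Brg1 cKO, against 37.4 ± 0.41 CPM in Brg1 WT (-0.53 ± 0.091, adjusted p = 0.0063, edgeR). Hinfp, an activator of H4 genes, fell to 28.2 ± 1.55 CPM in Brg1 cKO, against 36.7 ± 1.25 CPM in Brg1 WT (-0.38 ± 0.068, adjusted p = 0.0071, edgeR). The libraries of the genotypes did not overlap for any of these 4 lower genes. With the pan-germ cell median taken as no change, the log2 fold change was -0.72 for Asf1b, which stayed called, and -0.24 for Tonsl, -0.19 for E2f1 and -0.041 for Hinfp, which were no longer called (adjusted p = 0.055, 0.103 and 0.624, edgeR).

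The 3 higher genes act on replacement histones or assembly. Anp32e, which removes H2A.Z from chromatin, had 191 ± 3.87 CPM in Brg1 cKO and 144 ± 23.9 CPM in Brg1 WT (0.41 ± 0.10, adjusted p = 0.023, edgeR). Chaf1b, a subunit of the replication-coupled assembly factor, had 26.1 ± 3.99 CPM in Brg1 cKO and 19.6 ± 1.006 CPM in Brg1 WT (0.41 ± 0.11, adjusted p = 0.030, edgeR), while its partner Chaf1a was called lower (-0.43). Atrx, which places H3.3 in heterochromatin, had 282 ± 19.5 CPM in Brg1 cKO and 219 ± 30.2 CPM in Brg1 WT (0.37 ± 0.10, adjusted p = 0.032, edgeR). With the Sertoli cell median taken as no change all 3 turned slightly negative, and without Brg1 WT replicates 1 and 2 no supply gene was called higher and 1, Asf1b, lower. None was called higher without Brg1 WT replicate 1 or without Brg1 WT replicate 2, and 1 without Brg1 cKO replicate 1 or without Brg1 WT replicate 3. Higher calls over all tested genes, 8.79% with all libraries, were 4.41%, 3.93%, 3.41% and 5.54% in those fits, in that order. Without Brg1 WT replicates 1 and 2 together, 0.584% of all tested genes were called higher and 2.08% lower. The sum of 19 DNA replication genes was 1157 to 1502 CPM in Brg1 cKO and 1418 to 1560 CPM in Brg1 WT, with overlap. Of these 19 genes 4 were called lower and 0 higher (21.1% called), beside 11.8% and 8.79% of all tested genes. At an unadjusted p under 0.05 by edgeR, 11 were lower and 0 higher, beside 19% and 17.7% of all tested genes. Their part in the supply values was not tested.

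**Figure D5:**
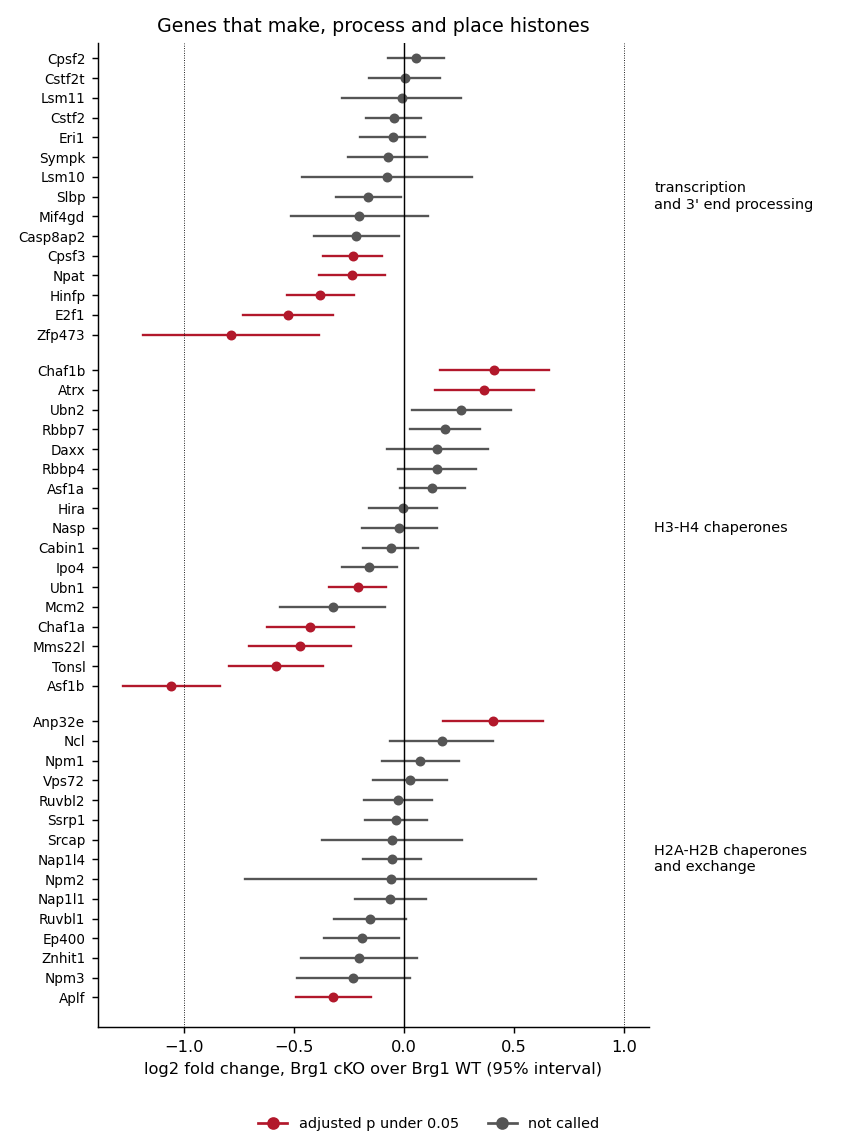
Log2 fold change of histone supply genes, Brg1 cKO over Brg1 WT, in the 3 roles of transcription and message processing, H3-H4 chaperones, and H2A-H2B chaperones and exchange, with 95% intervals from the edgeR quasi-likelihood fit; red marks an adjusted p under 0.05 and grey a gene not called. Asf1b lies lowest, at -1.06, and Chaf1b, Atrx and Anp32e are called higher.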

How the data were processed

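The authors deposited estimated counts, 1 row per gene symbol, made with kallisto 0.42.5, per the submitters' processing notes, which also name the build mm9 and edgeR. The annotation behind the counts and the use of strand in counting: not given in the sources used here. Of the values 49.39% were not whole within 1e-06, so the estimated counts were rounded for tests. Genes were filtered with filterByExpr, scaled by TMM and tested by genotype in edgeR 4.0.16 (quasi-likelihood, robust, R 4.3.3), Benjamini-Hochberg adjusted over 16059 genes at 0.05. CPM used unrounded counts over TMM-scaled totals, and log2 CPM a prior count of 2. SE is the absolute log2 fold change over the square root of F, and intervals cover 95%. The script was tested on simulated data. Histone genes, gene lists and alternatives were chosen with earlier results of these data known. Library values are given for all replacement variants, called cluster genes and the 5 most abundant cluster genes, and up to 4 called supply genes per direction are named; further genes were named after their values were seen. Alternatives were DESeq2 1.42.0, limma-voom (limma 3.58.1), other scalings and filters, a replicate block and leaving out libraries. Lengths, message ends and shared 31-base words came from GENCODE M21 (GRCm38), a later build than that of the counts, matched by symbol for all 77, so no coordinates are given. The labels give no batch or date, and all 12 pairs of libraries of the same genotype differed beyond sampling noise. Of the supply list 1 gene is not reported here by name, though the list counts include it.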

Additional observations from a re-analysis of the deposited data

Results flagged for a closer look

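In 3 of 76 groups of 4 libraries, one library stood apart from the others by the gap test of Dixon, where chance gives about 1 in 20. For H2afy the library was Brg1 WT replicate 4, at 125.3 CPM, while its other replicates had 113.8 to 115.6 CPM, a gap of 0.843 of the group's range. For Hist1h2bq it was Brg1 cKO replicate 4, at 0.985 CPM, while its other replicates had 0.186 to 0.281 CPM, a gap of 0.880 of the range. For Hist1h4m it was again Brg1 cKO replicate 4, at 1.21 CPM, against 0.502 to 0.541 CPM in its other replicates, a gap of 0.946 of the range. Hist1h2bq and Hist1h4m each share over 90% of their 31-base words with another annotated gene.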

How the results depend on the processing

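Smarca4 stayed called lower under every alternative, and the class sums moved by less than the spread between replicates, though the H2A and H2B sums, near 0 in log2 difference, changed sign when 1 library was left out (-0.13 to 0.11 and -0.034 to 0.079). Genes called across the table numbered 3312, and 8767 with the pan-germ cell median taken as no change, 9214 with the Sertoli cell median so taken, 438 without Brg1 WT replicates 1 and 2, and 1608 to 3477 when 1 library was left out (1608 without Brg1 cKO replicate 1, 1881 without replicate 3, and 2037, 1777 and 2135 without Brg1 WT replicates 1, 2 and 3). Histone genes called higher numbered 0, and 2 by DESeq2, 1 with RLE factors, 1 with a 1 CPM filter, 10 by the pan-germ cell median and 0 to 1 with 1 library left out. Those called lower numbered 1, and 0 without a filter, 11 by the Sertoli cell median and 0 without Brg1 WT replicates 1 and 2. With 1 library left out 0 to 2 were called lower. The 1 CPM filter also gave 0, but it tested only 20 of the histone genes. It removed Hist1h3a before the test, so this 0 is not a call lost on testing. The median of the histone genes, 0.044, became 0.17 over the 20 genes that the 1 CPM filter kept (0.173). It was 0.38 by the pan-germ cell median (0.384) and -0.37 by the Sertoli cell median (-0.375). For genes with a mean count of at least 100 it was 0.17 (0.168). With 1 library left out it ran from -0.019 to 0.13 (0.134 without Brg1 WT replicate 4). Supply genes called higher, 3, became 27 and 0 by the pan-germ and Sertoli cell medians, 0 without Brg1 WT replicates 1 and 2 and 0 to 4 with 1 library left out. Those called lower, 15, became 1 and 46 by those medians, 1 without Brg1 WT replicates 1 and 2 and 8 to 16 with 1 library left out.

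Relative to the pan-germ cell median, log2 fold changes turned to 0.053 for H2afv, 0.16 for H2afy2 and 0.24 for Hist1h2ap. Relative to the Sertoli cell median they turned to -0.32 for H2afj, -0.25 for H2afy, -0.26 for H2afz (-0.255), -0.23 for H3f3a, -0.27 for H3f3b, -0.055 for Hist2h2aa1, -0.11 for Hist1h2al, -0.021 for Hist2h3c1, -0.25 for Hist1h2bc, -0.013 for Anp32e, -0.0082 for Chaf1b and -0.054 for Atrx. Without Brg1 WT replicates 1 and 2 H2afj gave -0.041 and H3f3b -0.031, and without Brg1 WT replicate 4 Hist1h2ap gave 0.063. The cause was not tested.

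The groups share replicate numbers, but same-numbered libraries did not all deviate together: the correlations were -0.21, 0.13, -0.36 and 0.15, and 2 of the 4 Brg1 cKO libraries correlated best with their own number. With the replicate number as a block 1914 genes were called, 0 histone genes lower and 9 supply genes lower. The fits with the pan-germ or Sertoli cell median, without Brg1 WT replicates 1 and 2, with near-identical copies summed and with a mean count minimum were chosen with the data seen. Precision is limited for 13 of the 30 genes, whose intervals reach past 2-fold, and 10 of the 30 genes have under 10% of 31-base words of their own.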
